A study of Mus musculus with 6 samples.

Results

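The family of miR-204 and miR-211 was examined in small extracellular vesicles (sEV) released by cochlear explants of mice at postnatal day 3. Its members were chosen by name, as every row of the read-count table that starts with mmu-miR-204- or mmu-miR-211-, and 3 of the 810 rows met this rule: mmu-miR-204-5p, mmu-miR-204-3p and mmu-miR-211-5p. The family was singled out because mmu-miR-204-5p held the most reads in the table, so its high level is a description here and not a finding. The other arm of the second hairpin, mmu-miR-211-3p, is not analysed here. The Cis-sEV group holds 3 libraries of sEV from explants treated with 50 μM cisplatin for 48 h, and the Ctrl-sEV group holds 3 libraries from explants given the same volume of PBS. Each library was made from the vesicles of about 80 explants, and so is a pool, and both groups were cultured in serum cleared of vesicles. Per the study's methods the explants were sensory epithelium of ICR mice, from which the spiral ganglion and further epithelia had been dissected away, and the cells that released the vesicles were not separated.

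A miRNA is cut from a hairpin RNA, and 1 arm, the guide, is usually kept by an Argonaute protein while the other, the passenger, is mostly lost. Bases 2 to 8 of the guide, the seed, pair with target mRNAs, so miRNAs with the same seed share most of their predicted targets. miR-204 and miR-211 are a pair of vertebrate paralogs, each carried in an intron of a gene for a TRPM cation channel. They are best known from the retinal pigment epithelium, lens, choroid plexus and melanocytes, where miR-211 is made together with its host gene TRPM1 under the control of MITF. The lateral wall of the cochlea also holds cells of melanocyte origin, the intermediate cells of the stria vascularis, a tissue outside the sensory epithelium.

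The sequences below are those of the deposited table, and the mature sequences of the 3 members are the same in RefSeq (GRCm38.p6), which gives the positions. They are shown because the members differ by so little that the counts depend on single bases. The seed is in capitals, 5′ to 3′.
mmu-miR-204-5p: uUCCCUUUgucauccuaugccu
mmu-miR-211-5p: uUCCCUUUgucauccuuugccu
mmu-miR-204-3p: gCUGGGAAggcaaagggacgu
predicted miRNA: uUCCCUUUgucauuaugccu

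mmu-miR-204-5p and mmu-miR-211-5p are identical at 21 of 22 bases. The substitution is A17U, counted from 1 at the 5′ end of mmu-miR-204-5p, and lies outside the seed. The passenger mmu-miR-204-3p has another seed. Among the 809 rows with a mature sequence, 3 carry the seed of mmu-miR-204-5p, namely the 2 guides of the family and a miRNA predicted by the authors. That predicted sequence has 20 bases and equals mmu-miR-204-5p without its bases 14 to 15, shown in capitals here.
mmu-miR-204-5p: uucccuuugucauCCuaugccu
predicted miRNA: uucccuuugucauuaugccu

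The authors placed the predicted sequence on chromosome 12, at the start of a predicted hairpin that does not hold the sequence of mmu-miR-204-5p. Mir204 lies on the plus strand of chromosome 19, from 22750605 to 22750672, inside an intron of Trpm3 on the same strand. Mir211 lies on the plus strand of chromosome 7, from 64205806 to 64205911, inside an intron of Trpm1, also on the same strand. No annotated exon other than those of the miRNA genes themselves overlaps either hairpin in GENCODE M21. The hairpins are shown with the counted arms in capitals, which for Mir204 are both arms and for Mir211 the 5p arm.
mmu-mir-204: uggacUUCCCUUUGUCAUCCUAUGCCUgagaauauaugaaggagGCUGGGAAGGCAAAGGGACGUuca
mmu-mir-211: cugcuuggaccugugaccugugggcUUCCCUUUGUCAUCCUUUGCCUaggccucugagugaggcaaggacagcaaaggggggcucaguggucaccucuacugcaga

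The counts of these rows rest on libraries of unequal size. The total of miRNA reads was 1722359 to 1794175 in Cis-sEV against 528952 to 718597 in Ctrl-sEV, and 0 reads allow a level of up to 1.67 to 1.74 reads per 1000000 miRNA reads (CPM) in Cis-sEV against 4.17 to 5.67 CPM in Ctrl-sEV. Copies made by PCR were not told apart, so intervals and limits given here cover counting error only. Where values are given as shares or CPM, they are relative to the miRNA reads of the same library, and other RNA classes are not analysed here. More vesicles, more cells that release them and more miRNA in each vesicle cannot be told apart in such libraries. The vesicles carried the guide arms of the miR-183 cluster, which marks hair cells, at 5.91 to 8.15% of the miRNA reads in Cis-sEV against 5.50 to 5.58% in Ctrl-sEV. These guides did not move alike. mmu-miR-96-5p had 42622, 19052 and 13060 reads in Cis-sEV against 1225, 1541 and 1836 in Ctrl-sEV. In the test given below it was called higher, whereas mmu-miR-183-5p and mmu-miR-182-5p were not called, at log2 fold changes of -0.49 and 0.18. The summed share is thus no measure of the cluster as a whole.

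The guide mmu-miR-204-5p had nearly the same number of reads in every library, whereas the other 2 rows of the family had more reads in Cis-sEV. mmu-miR-204-5p was counted 119358, 114270 and 113807 times in the Cis-sEV libraries against 114204, 113168 and 109279 times in the Ctrl-sEV libraries. The groups overlapped, and the ratio of the group means was 1.03. mmu-miR-211-5p was counted 11954, 18209 and 15687 times in Cis-sEV against 3274, 6099 and 1951 times in Ctrl-sEV, a ratio of 4.05. mmu-miR-204-3p was counted 3287, 1732 and 3140 times in Cis-sEV against 667, 961 and 1132 times in Ctrl-sEV, a ratio of 2.96. For both of these rows the lowest Cis-sEV count was above the highest Ctrl-sEV count, which was also the case for 71.4% of the 353 miRNAs whose reads sufficed for a test. The opposite order was found for 1.13% of them.

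The coefficient of variation of the mmu-miR-204-5p reads over the 6 libraries was 2.82%. This was the lowest of the 169 tested rows with reads in every library, whose median was 74.1%. The next lowest were mmu-miR-181a-1-3p at 16.8% and mmu-miR-125b-1-3p at 18.3%. Over the same 169 rows the ratio of mean reads between Cis-sEV and Ctrl-sEV had a median of 4.05, and 19 rows had a ratio below that of mmu-miR-204-5p. The ratio of mmu-miR-211-5p therefore lay at the median of these rows, and that of mmu-miR-204-3p below it.

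**Figure D1:**
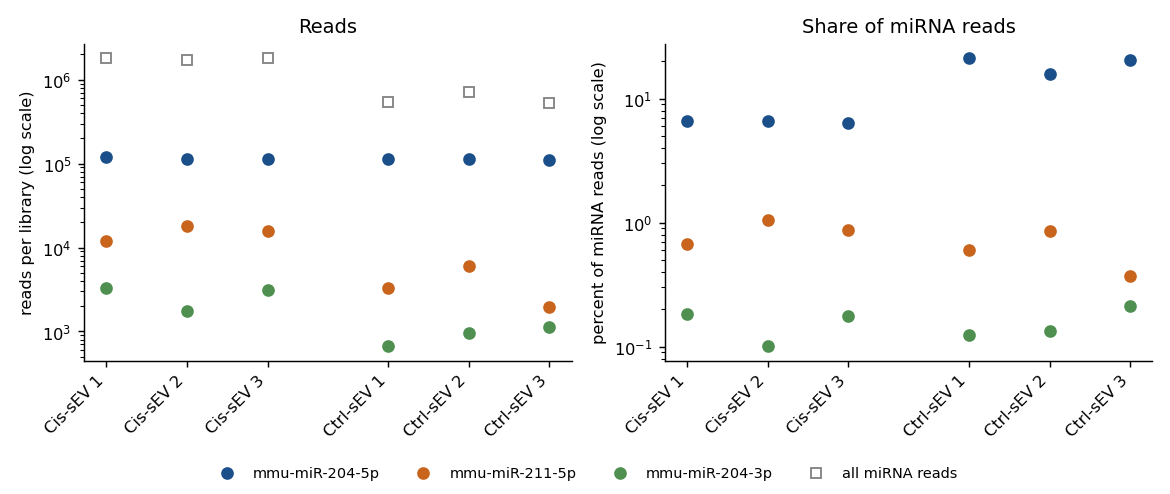
Reads (left) and percent of the miRNA reads (right) of the 3 family rows in each of the 3 Cis-sEV and 3 Ctrl-sEV libraries, both on log axes, with the total miRNA reads as open squares on the left. The reads of mmu-miR-204-5p lie between 109279 and 119358 in all 6 libraries, and its share is 15.7 to 21.2% in Ctrl-sEV and 6.34 to 6.66% in Cis-sEV.

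As a share of the miRNA reads, the family was smaller in Cis-sEV. The 3 rows together took 7.51, 7.79 and 7.39% of the reads in the Cis-sEV libraries against 21.9, 16.7 and 21.2% in the Ctrl-sEV libraries. The lowest Ctrl-sEV value, in replicate 2, came from the largest library of that group. The means were 7.57 ± 0.205% (SD, n = 3) and 20.0 ± 2.81% (SD, n = 3), which differed by -12.4 percentage points (two-sided exact permutation test, p = 0.1). This is the smallest p that 3 libraries against 3 allow, here and in the permutation tests that follow. The 95% Wilson intervals of the 6 shares reached from 7.35 to 7.83% in Cis-sEV against 16.6 to 22.0% in Ctrl-sEV, narrow against the spread between the Ctrl-sEV libraries.

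Nearly all of this share was mmu-miR-204-5p, on rank 1 in all 6 libraries. It made up 86.5 ± 1.88% (SD, n = 3) of the family's reads in Cis-sEV against 96.0 ± 1.66% (SD, n = 3) in Ctrl-sEV. mmu-miR-211-5p ranked 30 to 34 in Cis-sEV against 28 to 38 in Ctrl-sEV, with 0.667 to 1.06% and 0.369 to 0.849% of the miRNA reads. mmu-miR-204-3p ranked 61 to 76 and 50 to 57, with 0.101 to 0.183% and 0.124 to 0.214%. For these 2 rows the shares of the groups overlapped.

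The distance from mmu-miR-204-5p to the next most abundant miRNA also differed. That miRNA was mmu-let-7c-5p, a let-7 guide linked with differentiation, in both groups. There were 1.17, 1.12 and 1.09 reads of mmu-miR-204-5p for each read of mmu-let-7c-5p in Cis-sEV, and 2.01, 1.59 and 2.39 in Ctrl-sEV. For mmu-let-7a-5p there were 1.23 to 1.34 in Cis-sEV against 2.11 to 3.68 in Ctrl-sEV. For mmu-miR-181a-5p there were 1.44 to 1.63 and 3.34 to 4.03, and for mmu-let-7f-5p 1.37 to 1.52 and 3.60 to 6.27. The fifth place of the other miRNAs was held by mmu-miR-26a-5p in Cis-sEV, with 1.58 to 1.71 reads of mmu-miR-204-5p for each of its reads there. In Ctrl-sEV mmu-miR-183-5p, a hair cell miRNA, was among the first 5, at 3.65 to 5.03. In every one of these pairs seen in both groups the ranges of the groups were apart. The same order against mmu-miR-204-5p was found for 70.7% of the 352 other tested miRNAs, so it is not particular to these pairs.

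Between the groups, edgeR's quasi-likelihood test called 1 of the 3 rows, mmu-miR-204-5p, as lower in Cis-sEV. A call needed a Benjamini-Hochberg adjusted p, over the 353 tested miRNAs, no higher than 0.05 together with a log2 fold change of 1 or more in size, and levels were scaled by TMM, which scales the libraries so that the bulk of the miRNAs does not differ. Over all tested miRNAs 23.5% were called higher and 6.52% lower, 83 and 23 miRNAs, or 97 and 11 with total miRNA reads in place of TMM. In a fit limited to the 135 miRNAs with 10 reads or more in every library, 18 were called higher and 30 lower. A lower call was thus less rare among miRNAs with enough reads in both groups than the share over all tested miRNAs says. With 1 library left out, the number of tested miRNAs changed as well. The calls then ran from 53 of 341 (without Cis-sEV replicate 1) to 169 of 441 (without Ctrl-sEV replicate 3), in place of 106 of 353. Without Cis-sEV replicates 2 and 3 in turn they were 57 of 342 and 70 of 344. All 3 rows of the family had enough reads to be tested. In CPM scaled by TMM, mmu-miR-204-5p had 58160 ± 3752 (SD, n = 3) in Cis-sEV against 220895 ± 60226 (SD, n = 3) in Ctrl-sEV. The fitted log2 fold change came to -1.93 (standard error 0.23, 95% interval -2.46 to -1.39, adjusted p = 0.00502 from edgeR), and 29 of the 353 tested miRNAs had a lower value. The median over all tested miRNAs was 0.44. Every Cis-sEV library lay below every Ctrl-sEV library, as for 12.5% of the tested miRNAs.

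The other 2 rows were not called. mmu-miR-211-5p had 7696 ± 1833 CPM scaled by TMM in Cis-sEV against 6849 ± 2453 in Ctrl-sEV, with overlapping groups. Its log2 fold change was 0.17 (standard error 0.31, 95% interval -0.58 to 0.91, adjusted p = 0.773 from edgeR), and this estimate lay on either side of 0 depending on the scaling. mmu-miR-204-3p had 1353 ± 386 CPM scaled by TMM in Cis-sEV against 1770 ± 514 in Ctrl-sEV, again with overlap. Its log2 fold change was -0.39 (standard error 0.32, 95% interval -1.14 to 0.36, adjusted p = 0.457 from edgeR), and it was positive where reads were not scaled. These intervals do not show that the levels were equal.

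**Figure D2:**
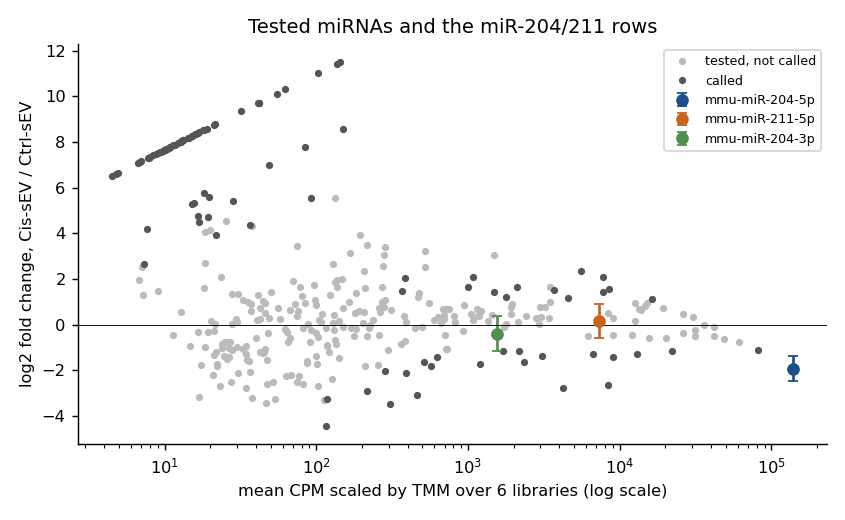
Log2 fold change of Cis-sEV over Ctrl-sEV from edgeR against the mean CPM scaled by TMM (log axis) for the 353 tested miRNAs, with the 3 family rows in colour and their 95% intervals as bars. mmu-miR-204-5p stands at the far right at -1.93, whereas the intervals of mmu-miR-211-5p and mmu-miR-204-3p include 0. The slanted line of points at the top left holds miRNAs with 0 reads in Ctrl-sEV, whose fold changes depend on the prior count.

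Ratios of reads within a library need no scaling and show how the members moved against each other. For every 100 reads of mmu-miR-204-5p there were 10.0, 15.9 and 13.8 reads of mmu-miR-211-5p in the Cis-sEV libraries against 2.87, 5.39 and 1.79 in the Ctrl-sEV libraries. All Cis-sEV values were above all Ctrl-sEV values. On the log2 scale the ratio was -2.94 ± 0.34 (SD, n = 3) in Cis-sEV against -5.05 ± 0.80 (SD, n = 3) in Ctrl-sEV, a difference of 2.11 (two-sided exact permutation test, p = 0.1). This ratio was chosen after its values were seen.

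The arms of the Mir204 hairpin moved in the same way. There were 36.3, 66.0 and 36.2 reads of the 5p guide for each read of the 3p passenger in the Cis-sEV libraries against 171, 118 and 96.5 in the Ctrl-sEV libraries. The guide was ahead in each library, by less in Cis-sEV, and the groups did not overlap. The log2 ratio of 5p to 3p reads, with 0.5 added to each, was 5.47 ± 0.50 (SD, n = 3) and 6.96 ± 0.42 (SD, n = 3), with a change of -1.49 (two-sided exact permutation test, p = 0.1). Between mmu-miR-211-5p and mmu-miR-204-3p the groups were not apart. The ratio of mmu-miR-211-5p to mmu-miR-204-3p, on the log2 scale, ran from 1.86 to 3.39 in Cis-sEV against 0.79 to 2.67 in Ctrl-sEV, with overlap (p = 0.5 by the same exact permutation test).

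Most tested miRNAs moved against mmu-miR-204-5p in the same direction. Per read of mmu-miR-204-5p, the lowest Cis-sEV library was above the highest Ctrl-sEV library for 70.7% of the 352 other tested miRNAs, mmu-miR-211-5p and mmu-miR-204-3p included, and below for 1.14%. With the reads of mmu-miR-204-5p as the library size, a setting chosen after seeing the data, edgeR called 48.7% of the tested miRNAs higher and 0 lower, with 2 lower at an unadjusted p under 0.05. In this fit the log2 fold change of mmu-miR-211-5p came to 1.98 ± 0.44 (standard error; edgeR, adjusted p = 0.00934) and that of mmu-miR-204-3p to 1.51 ± 0.37 (standard error; edgeR, adjusted p = 0.0142), both below the median of 2.32 over all tested miRNAs.

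Set against the mean log2 reads of the 166 other tested miRNAs with reads in every library, mmu-miR-204-5p stood at 6.43, 6.38 and 6.25 in Cis-sEV and at 8.69, 8.32 and 8.52 in Ctrl-sEV. The difference of the group means was -2.16 (two-sided exact permutation test, p = 0.1), with no overlap. This mean weighs rows with few reads in Ctrl-sEV like the others, and the size of the difference depended on the reference. It was -1.75 against the summed reads outside the family and -1.45 against the summed let-7 guide reads, also with no overlap. For mmu-miR-211-5p the same log2 ratio was 3.41 ± 0.31 (SD, n = 3) in Cis-sEV against 3.46 ± 0.71 (SD, n = 3) in Ctrl-sEV, with overlap (two-sided exact permutation test, p = 1). For mmu-miR-204-3p it was 0.88 ± 0.48 (SD, n = 3) and 1.55 ± 0.34 (SD, n = 3), which differed by -0.66 (two-sided exact permutation test, p = 0.1). For this row the highest Cis-sEV value, 1.24, lay just below its lowest Ctrl-sEV value, 1.28. How many other miRNAs were apart on this ratio was not counted. In CPM scaled by TMM, 12.5% of the tested miRNAs were apart in this direction.

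**Figure D3:**
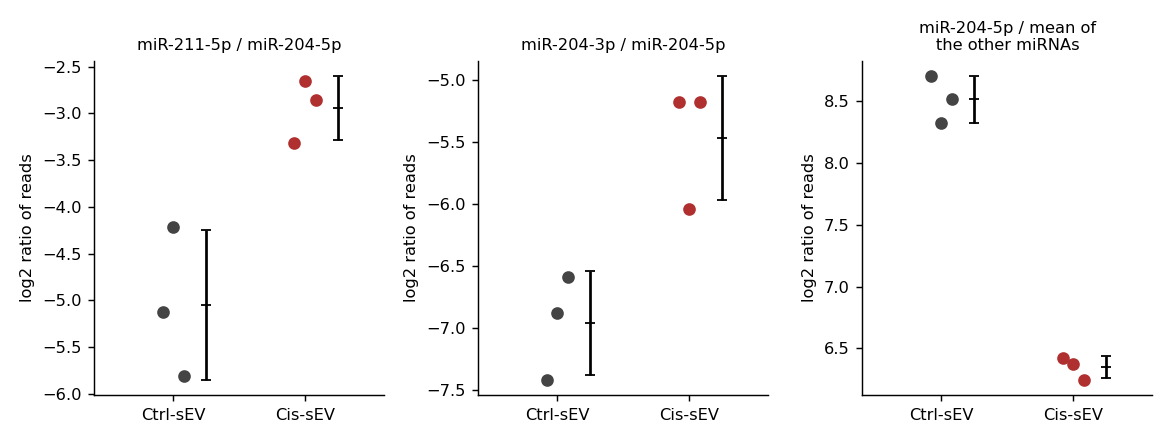
Log2 ratios of reads within each library, for mmu-miR-211-5p to mmu-miR-204-5p, mmu-miR-204-3p to mmu-miR-204-5p, and mmu-miR-204-5p to the mean log2 reads of 166 other miRNAs. Each point is a library, the bars are the mean and SD (n = 3), and the 3 vertical axes differ and do not start at 0. The groups do not overlap in any panel, with differences of 2.11, 1.50 and -2.16.

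The change of arms was compared with other hairpins whose arm names differ only in 5p and 3p and had reads of both in every library, 14 pairs in all. Arms with a hairpin number in the name, such as mmu-miR-181a-1-3p, mmu-miR-181a-2-3p and mmu-miR-125b-1-3p, were not paired, so the counts below leave them out. The pairs include miR-199a, whose 3p arm has the same sequence as another row. The major arm is the one with more reads summed over the 6 libraries, a sum to which the larger Cis-sEV libraries add most. In 5 of the 14 pairs, Mir204 included, the minor arm was higher against the major arm in Cis-sEV, and the median change over the 14 was -0.79 on the log2 scale. The change of 1.50 for miR-204 was the fourth largest. Every Cis-sEV library lay above every Ctrl-sEV library in 3 pairs (21.4%), miR-204, miR-99b and miR-574, and below in 6 pairs (42.9%). In the Ctrl-sEV means the minor arm was the larger one for miR-872 and miR-425, at log2 ratios of 0.26 and 0.47. For miR-199a it was so in both groups, at 0.64 in Cis-sEV and 2.35 in Ctrl-sEV. Naming the arms by such a sum pushes the changes below 0, so the median and these counts are not an even background for miR-204.

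mmu-miR-204-5p and mmu-miR-211-5p are told apart at base 17 alone. RNA of 18 nt or more that starts at their first base reaches it. A read misread at that base would fit the other member, and how such reads were counted is not given in the sources used here. The split of reads between the pair is uncertain to that extent. The reads of mmu-miR-204-5p stayed within 109279 to 119358, while those of mmu-miR-211-5p ran from 1951 to 18209.

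The predicted miRNA with the same seed had 32, 12 and 21 reads in Cis-sEV against 0 in each Ctrl-sEV library. With 3 reads over the Ctrl-sEV group in place of 0, its pooled level was 7.30-fold higher in Cis-sEV. Without Ctrl-sEV replicate 2, where that floor stands over fewer reads, it was 4.36-fold higher. These values take the Cis-sEV reads as counted and leave out the spread between libraries, so they are not lower limits. Per 10000 reads of mmu-miR-204-5p there were 2.68, 1.05 and 1.85 reads of it in the Cis-sEV libraries. Over the Ctrl-sEV libraries 0 reads beside 336651 reads of mmu-miR-204-5p allow up to 0.0891 per 10000. It had too few reads for the main edgeR test. The adjusted p was 0.0587 from edgeR with no filter on low counts and 0.0445 from DESeq2. Such a pattern was common at this level, since of the 135 other rows with 33 to 130 reads over the Cis-sEV group, 67 (49.6%) had 0 reads in every Ctrl-sEV library.

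Since mmu-miR-204-5p takes so large a share of Ctrl-sEV, it also bears on the level of every other miRNA. Without the 3 rows, the libraries held 1588148 to 1661541 reads in Cis-sEV against 416590 to 598369 in Ctrl-sEV, and the ratio of the group means rose from 2.97 to 3.42. The CPM of each other miRNA then rose by a factor of 1.08 in every Cis-sEV library, but by 1.28, 1.20 and 1.27 in the Ctrl-sEV libraries. With total miRNA reads as the scale, leaving the family out moved the log2 fold change of the 350 other tested miRNAs by a median of -0.21 (range -0.24 to -0.05). With TMM computed without the 3 rows the median move was -0.16 (range -0.34 to 0.00). These moves took 13 and 17 miRNAs across 0, which says only that they lay close to it.

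Most calls were kept under this scaling. With the family rows out of the TMM factors, edgeR called 22.4% of the tested miRNAs higher and 6.80% lower, 79 and 24 miRNAs, of which 102 were shared with the 106 of the scaling by all rows. The calls of 5 miRNAs outside the family changed. mmu-miR-9b-3p, of a family known from neural tissue, went from a log2 fold change of 1.12 to 0.95 and so below the limit of 1. It had 40370, 47183 and 45295 reads in Cis-sEV against 4231, 6586 and 5428 in Ctrl-sEV. The adjusted p from edgeR rose from 0.0423 to 0.0908 for mmu-miR-542-5p, from 0.0430 to 0.0687 for mmu-miR-135b-5p and from 0.0491 to 0.0539 for mmu-miR-421-3p, and these 3 were no longer called higher. mmu-miR-125b-1-3p, a passenger arm, was newly called lower, at a log2 fold change of -1.96 in place of -1.80 and an adjusted p from edgeR of 0.0453 in place of 0.0639.

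The log2 fold change of mmu-miR-204-5p itself was -2.08 with the family left out of the TMM factors and -1.55 with total miRNA reads. With the reads as counted and no scaling it was 0.05 (standard error 0.11, adjusted p = 0.767 from edgeR), whereas mmu-miR-211-5p then had 2.02 (standard error 0.43, adjusted p = 0.00739 from edgeR) and mmu-miR-204-3p 1.56 (standard error 0.36, adjusted p = 0.0106 from edgeR), and 49.0% of the tested miRNAs were called higher. A scaling moves the 3 rows nearly alike, so their order is set by their reads and not tested by these settings.

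**Figure D4:**
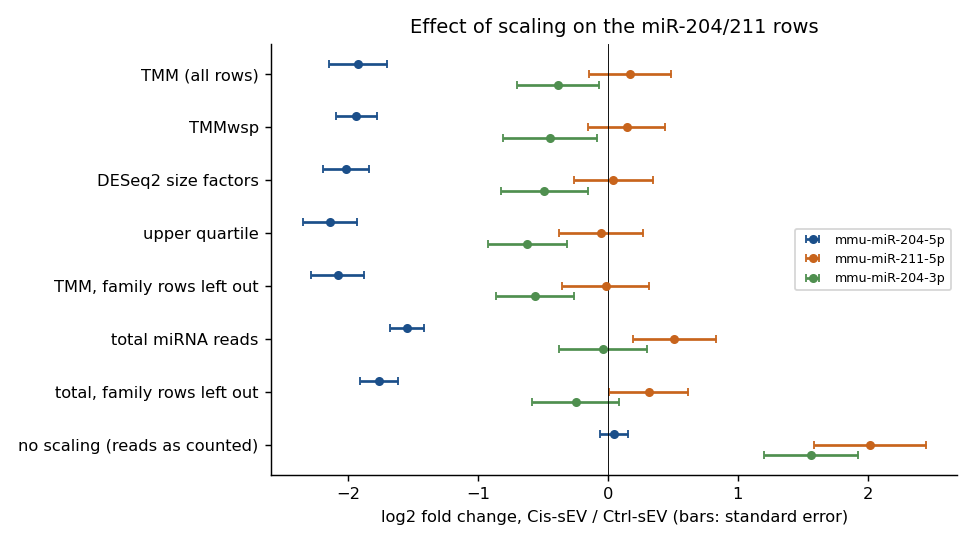
Log2 fold change of Cis-sEV over Ctrl-sEV of the 3 family rows from edgeR under 8 scalings, with standard errors as bars. mmu-miR-204-5p lies between -2.14 and -1.55 under the 7 scalings that use the other miRNAs or the totals and at 0.05 with no scaling, and the 3 rows move nearly alike from scaling to scaling.

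The miRNAs whose pattern was most like that of mmu-miR-204-5p were found by the SD, over the 6 libraries, of the log2 ratio of their reads to those of mmu-miR-204-5p, among the 166 other tested miRNAs with reads in every library. The smallest SD were 0.26 for mmu-miR-125b-1-3p, 0.27 for mmu-miR-181a-1-3p, 0.32 for mmu-miR-92a-3p, 0.34 for mmu-miR-181a-2-3p and 0.45 for mmu-miR-181b-5p, against a median of 1.32. Of these 5, 3 are passenger arms. mmu-miR-92a-3p, a guide of the miR-17-92 cluster, was the most abundant of them, with 8762, 9684 and 10768 reads in Cis-sEV against 5782, 7282 and 7303 in Ctrl-sEV. Since these rows were chosen for following mmu-miR-204-5p over the same libraries, their fold changes are a description. Over all tested miRNAs edgeR called 6.52% lower, and 30 of 135 in the fit limited to 10 reads or more in every library. In the main fit the lower calls included mmu-miR-181a-1-3p, mmu-miR-92a-3p, mmu-miR-181a-2-3p and mmu-miR-181b-5p, at -1.62, -1.43, -1.63 and -1.36 on the log2 scale. The family's own rows were farther off, with an SD of 0.92 for mmu-miR-204-3p and 1.28 for mmu-miR-211-5p. The 3 farthest were mmu-miR-140-5p, a cartilage miRNA, at 4.18, mmu-miR-141-3p, of the epithelial miR-200 family, at 4.21 and mmu-miR-199a-3p, a mesenchymal miRNA, at 4.27. In Ctrl-sEV mmu-miR-140-5p had 1, 2 and 3 reads and mmu-miR-141-3p had 1, 155 and 116, so their SD rest on libraries with hardly any reads. mmu-miR-199a-3p has the same sequence as another row of the table, and its reads ran from 1 to 6515 over the libraries.

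Other miRNAs known beside miR-204 and miR-211 in pigment cells, eye epithelia or choroid plexus had rows for 7 of the 9 listed, and 6 were tested. Of these 1 was called higher, mmu-miR-218-5p, and 0 lower by edgeR, beside 23.5% and 6.52% of all tested miRNAs. mmu-miR-218-5p, also known from motor neurons, had 23396, 21557 and 23407 reads in Cis-sEV against 1803, 2054 and 2571 in Ctrl-sEV. On the log2 scale it was higher by 1.45 ± 0.23 (standard error). The melanocyte-linked mmu-miR-221-3p and mmu-miR-222-3p had 0.10 and 0.33, mmu-miR-31-5p 0.39, the lens and corneal mmu-miR-184-3p 1.30 and the ciliated-cell mmu-miR-449a-5p -2.06, none of which passed the test. mmu-miR-137-3p had 3 reads in all, too few to be tested. The median log2 fold change of the 6 was 0.36, beside 0.44 for all tested miRNAs.

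Some markers of blood and of endothelial cells were also lower in Cis-sEV. The blood list had rows for 6 of 8 miRNAs and took 0.539 to 0.676% of the miRNA reads in Cis-sEV against 0.993 to 1.33% in Ctrl-sEV. Over all tested miRNAs 6.52% were called lower, and 30 of 135 in the fit limited to 10 reads or more in every library. Beside these shares, 3 of the list's 4 tested miRNAs were called lower by edgeR. They were the liver and serum mmu-miR-122-5p at -2.78, the erythrocyte mmu-miR-486a-5p at -3.47 and mmu-miR-451a, also of erythrocytes, at -1.15, while mmu-miR-16-5p had 0.31. The median of the 4 was -1.97, beside 0.44 for all tested miRNAs. Of its miRNAs without enough reads for the test, the erythroid mmu-miR-144-3p had 2 reads in all, and the myeloid mmu-miR-223-3p had 23, 28 and 3 reads in Cis-sEV against 3, 4 and 0 in Ctrl-sEV. The endothelial list held both arms of miR-126a, which differed in sign. mmu-miR-126a-3p was called lower at -1.28, whereas mmu-miR-126a-5p, with 94, 51 and 84 reads in Cis-sEV against 0, 0 and 3 in Ctrl-sEV, had 4.17 (adjusted p = 0.0759 from edgeR) and was not called. The median of the pair was 1.44, and their summed share, nearly all of it mmu-miR-126a-3p, was 0.691 to 0.995% and 1.46 to 1.86% of the miRNA reads. Their part in the share of mmu-miR-204-5p was not tested.

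The remaining lists held calls of higher level only, beside 23.5% of all tested miRNAs, and with so few members these counts say little. Of 3 hair cell miRNAs 1 was called higher, of 6 epithelial miRNAs 2, of 6 neuronal miRNAs 3 and of 5 mesenchymal miRNAs 1, and none was called lower by edgeR in these lists, beside 6.52% of all tested miRNAs. The hair cell guide mmu-miR-183-5p had a log2 fold change of -0.49 (adjusted p = 0.0419 from edgeR), under the size a call needed. mmu-miR-96-5p of the same cluster had 2.08, and the epithelial mmu-miR-200a-3p and mmu-miR-200b-3p 1.21 and 1.65. The mesenchymal mmu-miR-140-5p had 5.54, with only 1, 2 and 3 reads in the Ctrl-sEV libraries. The neuronal mmu-miR-124-3p, mmu-miR-153-3p and mmu-miR-129-2-3p had 0 reads in every Ctrl-sEV library. The median log2 fold change was 0.18 for the hair cell list and 0.77 for both the epithelial and the mesenchymal list. None is given for the neuronal list, in which these 3 fold changes depend on the prior count.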

How the data were processed

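The 6 libraries hold small RNA of sEV, 3 for each treatment. The authors cut RNA of 18 to 30 nt from a gel, sequenced it on the DNBSEQ platform, used Bowtie2 for alignment to GRCm38.p6 and AASRA and cmsearch for annotation, took miRBase names first, and deposited whole-number read counts per mature miRNA with no normalization. The 2 columns of the authors' group means were not used.

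Counts were tested with edgeR 4.0.16 in R 4.3.3 (quasi-likelihood fit, TMM, filterByExpr at its default settings, Benjamini-Hochberg). This filter turns 10 reads at the median library size into a CPM limit. A row must reach that limit in as many libraries as the smaller group holds, and have 15 reads in total. DESeq2 1.42.0 and limma 3.58.1 (limma-voom) served as alternatives. Ratios, shares with Wilson intervals and exact permutation tests used Python 3.11.15, numpy 2.4.6, pandas 2.3.3 and scipy 1.17.1, and figures matplotlib 3.10.9. The edgeR step was tested on simulated data in which as many miRNAs rose as fell. The calls here were uneven, so this does not test the scaling in such a setting. Depth was 528952 to 1794175 miRNA reads per library, and p-values measure only the spread between these pools of explants.

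The members and lists were chosen with earlier results of these data known. Named miRNAs were the family rows, rows with the same seed, the 5 most abundant others of each group, the 5 nearest and 3 farthest in pattern, those whose call changed without the family rows in the scaling, and list members.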

Additional observations from a re-analysis of the deposited data

How the results depend on the processing

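mmu-miR-204-5p was called lower, at log2 fold changes from -2.14 to -1.55, under each alternative scaling, filter and test run except no scaling, where it was 0.0455, and its own reads as the library size, which fix it at 0, and from -2.07 to -1.74 with each library left out. mmu-miR-204-3p was called under 2 settings, and its sign turned, at 1.56 with no scaling and 1.51 with mmu-miR-204-5p reads as the library size, a setting chosen after seeing the data. With each library left out it ran from -0.72 (without Cis-sEV replicate 1) to -0.02 (without Ctrl-sEV replicate 3). mmu-miR-211-5p was -0.0184 with TMM without the family rows and -0.0560 with upper-quartile factors, and was called at 2.02 with no scaling and 1.98 with mmu-miR-204-5p as the library size. With each library left out it ran from -0.14 (without Cis-sEV replicate 2) to 0.49, and was -0.01 without Ctrl-sEV replicate 3.

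Of the 353 tested miRNAs 106 were called, 83 higher and 23 lower. With no scaling 173 were higher and 0 lower (2 lower at an unadjusted p under 0.05), and with mmu-miR-204-5p as the library size 172 and 0 (2 likewise). limma-voom called 43 (30 and 13), and a minimum of 10 reads in every library left 48 (18 and 30) of 135. Without 1 library the number ran from 53 to 169, over tested sets that also changed in size. It was 53 of 341, 57 of 342 and 70 of 344 without Cis-sEV replicates 1, 2 and 3. Without Ctrl-sEV replicates 1, 2 and 3 it was 134 of 439, 121 of 442 and 169 of 441. The cause of these moves was not tested.

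Replicate numbers share no stated batch, so the main test did not pair the libraries. Deviations of same-numbered libraries correlated at -0.0486, -0.175 and -0.0159, and no library correlated best with its own number. Such weak correlations over 3 libraries in each group cannot tell whether same-numbered libraries shared a batch. With the replicate block 24 were called, 13 higher and 11 lower, and mmu-miR-204-5p had -1.89 (adjusted p = 0.00361 from edgeR). The differences in share, arm ratio and ratio to other miRNAs kept their direction under all alternatives run. The share differed by -22.3 points without the 10 most abundant other miRNAs. Adding the reads of the predicted miRNA to mmu-miR-204-5p, also chosen after seeing the data, changed the call of no family row. The smaller Ctrl-sEV libraries limit what can be said of rows with few reads, such as the predicted miRNA. With 3 libraries in each group no exact test could reach 0.05.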
